A study of Felis catus with 2 samples.

Results

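The genes described here encode the machinery that copies and divides cells. They were chosen by name, as the rows of the deposited table whose gene name equals 1 of 40 cell division genes, and 37 of the 40 were listed among 32065 loci. They were separated by role into 13 replication genes, which act while DNA is copied, and 24 mitosis genes, which act while chromosomes are separated and the cell is cleaved. CCNA2, PLK1 and TYMS were not found as names of their own. A locus whose name joins DCTN5 and PLK1 was listed at 29.7 FPKM in the normal cat and 18.9 FPKM in the affected cat, and was not counted because its value cannot be assigned to either gene.

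Polyadenylated RNA was sequenced from 2 domestic cats (Felis catus), both 2 months old. The affected cat had primary congenital glaucoma (PCG) and came from a pedigree that carries a recessive frameshift duplication in LTBP2, and the normal cat was unrelated and healthy. The tissue is labelled iridocorneal angle and, per the methods of the study, also held ciliary body, sclera and trabecular meshwork. Each condition was 1 cat and 1 library, so there is no replicate error, no difference between the conditions can be tested, and cat, dissection and disease cannot be told apart.

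Abundance is given as FPKM, a fragment number corrected for exon length and for the size of the library, so that levels of different genes can be compared within a library. Values summed to 649113 for the normal cat and 672893 for the affected cat. The table steps in whole fragments, and 1 fragment on 1 kilobase of effective transcript length was worth 0.0141 FPKM in the normal cat and 0.0148 FPKM in the affected cat. Of the markers of the angle and ciliary body, 13 of 13 that were listed had 1 FPKM or more in at least 1 library, with MYOC at 149.7 and 301.5 FPKM. AQP4 (0.186 and 1.36 FPKM) and CHI3L1 (0.854 and 32.0 FPKM) reached it in the affected library alone. Lens and photoreceptor genes were also present. CRYAA, a lens crystallin, was listed at 22978 FPKM in the normal cat and at 0 in the other, and how that 0 arose was not tested. Other crystallins were abundant in both cats, with CRYAB at 10017 FPKM (normal) and 8592 FPKM (affected). CRYBB2 was at 3588 FPKM (normal) and 9247 FPKM (affected).

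As background, most differentiated cells of an adult eye do not divide, and transcripts of the division machinery are made in waves. Replication genes are induced by E2F factors as cells enter S phase, and mitosis genes are induced later, in G2, largely through MYBL2 and FOXM1. In cells that have left the cycle both sets are repressed, although several replication and repair proteins are also made outside S phase. In the eye, dividing cells are classically found in the basal corneal and limbal epithelium, in growing vessels and at the lens equator. In bulk tissue, fewer dividing cells and less RNA per dividing cell cannot be told apart.

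Cell division genes were lower in the affected library with few exceptions. Of the 37 genes, 36 had a lower FPKM in the affected cat and 1, GINS2, had a higher one. Of the 16676 loci that reached 1 FPKM in a library, 8392 were lower in the affected cat and 8284 higher. All 37 reached 1 FPKM in the normal library, and 15 were below 1 FPKM in the affected library. The genes together held 460.2 FPKM in the normal cat and 182.1 FPKM in the affected cat. A log2 ratio was calculated for each gene as the affected over the normal value after 1 FPKM was added to both. On this scale 26 genes (70.3%) were at least 2-fold lower, against a background of 8.75% of the 16676 loci that reached 1 FPKM in a library. A single gene was at least 2-fold higher, where 8.14% of those loci were. At least 4-fold lower were 9 genes (24.3%), against 1.79% of the loci.

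**Figure D1:**
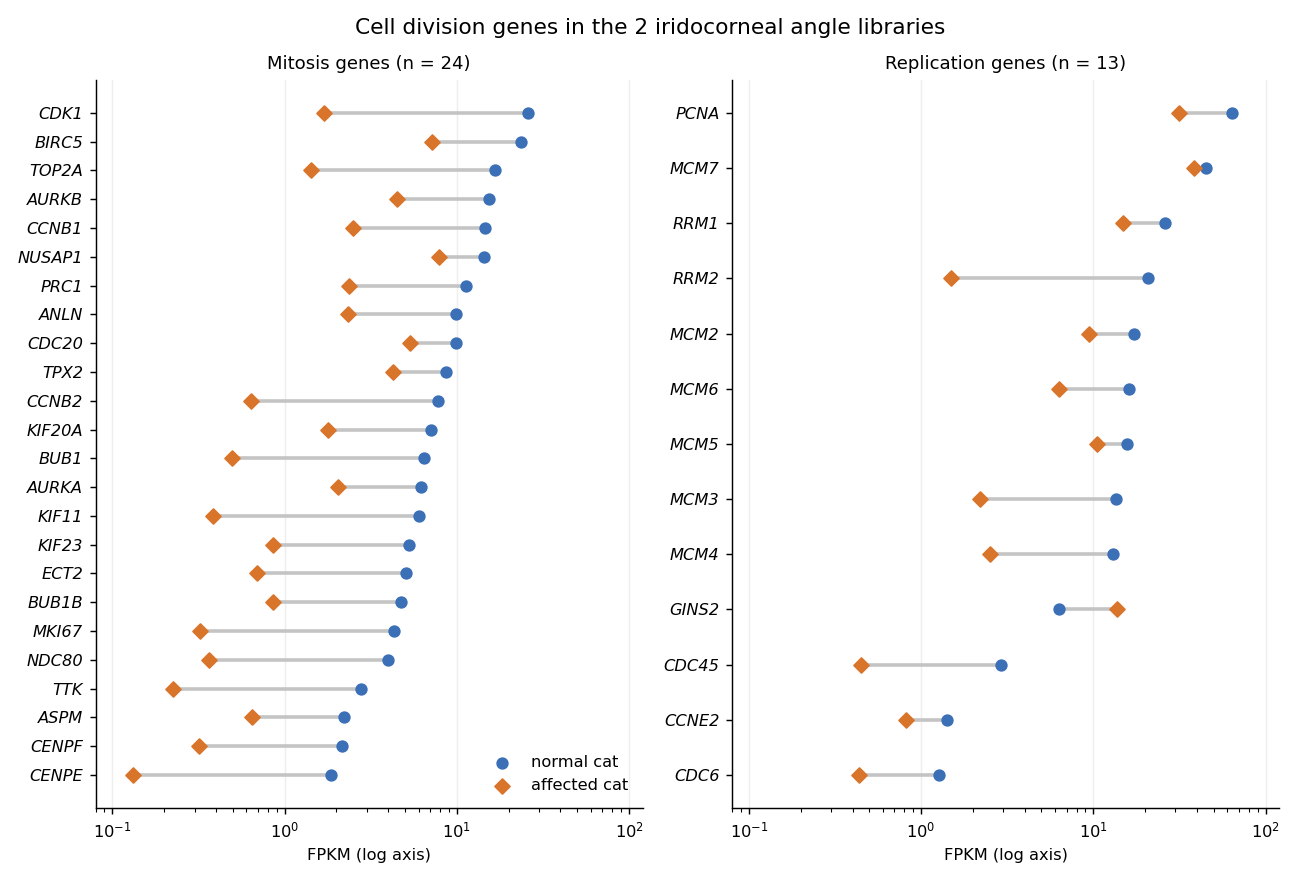
FPKM of each cell division gene on a log axis, with a circle for the normal and a diamond for the affected cat, 1 library each, in order of the normal value. The diamond lies left of the circle for 24 of 24 mitosis genes and 12 of 13 replication genes, and GINS2 is the exception. Of the 16676 loci that reached 1 FPKM in a library, 8392 had a lower value in the affected cat.

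Mitosis genes stood further from equality than replication genes. The median log2 ratio was −1.67 over the 24 mitosis genes, with a range from −3.32 to −0.78, and 20 of them were at least 2-fold lower. Over the 13 replication genes the median was −0.81, the range ran from −3.13 to 1.02, and 6 were at least 2-fold lower. Over all 16676 loci the median was −0.0047, and the middle 50% of loci lay between −0.43 and 0.40. The medians of mitosis and replication genes thus differed by 0.85 on the log2 scale, a difference between gene groups in 1 pair of libraries that has no replicate check.

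Adding 1 FPKM understates the difference of genes that are scarce in both libraries, so the plain ratio of the normal to the affected FPKM is given beside it. The median plain ratio was 5.96 for mitosis genes and 2.04 for replication genes, and 1.0 for all loci. On this scale 29 of 37 genes were at least 2-fold lower in the affected library, where 13.6% of loci were, and 10 genes were at least 10-fold lower, where 2.1% of loci were. These 10 were KIF11, CDK1, CENPE, RRM2, MKI67, BUB1, TTK, CCNB2, TOP2A and NDC80, 9 of them mitosis genes. In what follows, pairs of FPKM values give the normal cat first, and the intervals are exact 95% binomial intervals for counting error alone, calculated for the fragments on 1 kilobase of each transcript. By that measure the scarcest value was 9 fragments per kilobase. True transcript lengths differ from 1 kilobase, so the widths of these intervals cannot be compared between genes.

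**Figure D2:**
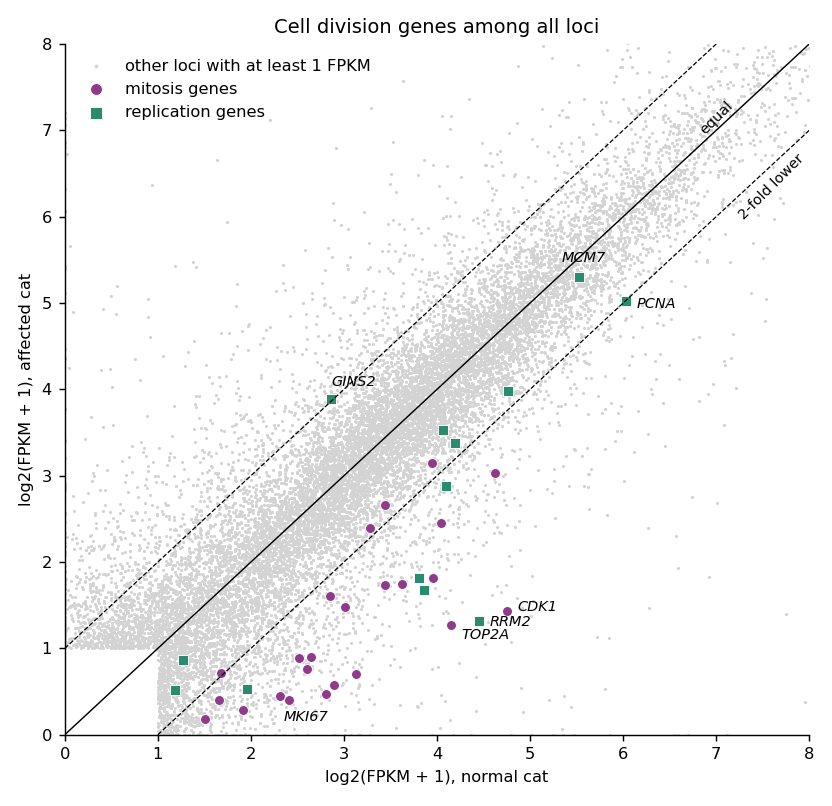
Each grey point is a locus that reached 1 FPKM in a library, placed by log2(FPKM + 1) in the normal and the affected cat and shown up to 8 on both axes, with equality as a solid line and 2-fold differences as dashed lines. Of the coloured cell division genes 26 lie on or below the lower dashed line, RRM2 and CDK1 furthest, and GINS2 lies just above the upper one.

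The kinase that drives entry into mitosis and its cyclins were among the genes furthest apart between the cats. CDK1, the catalytic subunit, was listed at 25.9 FPKM in the normal cat, the highest value of a mitosis gene there, and at 1.69 FPKM in the affected one. Its log2 ratio was −3.32, lower than that of any other member, and only 60 of the 16676 loci had a lower one. The plain ratio was 15.3 (12.7 to 18.7). CDK1 lies on chromosome D2 of felCat5 from 25062773 to 25108940, with no other locus on that span. CCNB1 and CCNB2, the B-type cyclins that activate CDK1, were listed at 14.6 and 7.75 FPKM in the normal cat and at 2.51 and 0.634 FPKM in the affected cat. Within the normal library CCNB1 was 0.564 times as abundant as CDK1, and within the affected library 1.48 times, so the order of kinase and cyclin was exchanged. For CCNB2 the corresponding ratios to CDK1 were 0.30 and 0.375.

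The Aurora kinases differed less than CDK1. AURKB, the kinase of the chromosomal passenger complex, was listed at 15.5 FPKM in the normal cat and 4.49 FPKM in the affected cat. BIRC5, or survivin, which targets AURKB to chromosomes in that complex, was listed at 23.7 and 7.19 FPKM. The log2 ratios of both round to −1.59, and BIRC5 was 1.53 times as abundant as AURKB in the normal cat and 1.60 times in the affected cat, so the pair kept nearly the same proportion. AURKA, which builds the spindle poles, was listed at 6.21 and 2.04 FPKM, with a log2 ratio of −1.25. TPX2, the spindle protein that activates AURKA, was at 8.71 and 4.27 FPKM and did not reach a 2-fold difference on the log2 scale (−0.88).

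BUB1, TTK and BUB1B act in the spindle checkpoint, which holds cells until all chromosomes are attached, and were each below 1 FPKM in the affected library. BUB1, a checkpoint kinase, was listed at 6.42 FPKM in the normal cat and 0.496 FPKM in the affected cat, a plain ratio of 13.0 (9.22 to 19.3). TTK, the kinase that starts checkpoint signalling at kinetochores, was listed at 2.78 and 0.225 FPKM, a ratio of 12.4 (7.39 to 22.7). BUB1B, or BUBR1, which restrains the anaphase-promoting complex, was at 4.72 and 0.852 FPKM, a ratio of 5.54 (4.15 to 7.39). CDC20, the activator of the anaphase-promoting complex that the checkpoint inhibits, differed less than these 3, with 9.87 and 5.33 FPKM and a ratio of 1.85 (1.63 to 2.11). It shares its span with ELOVL1, a lipid elongase, which had a similar log2 ratio (−0.75, against −0.78 for CDC20).

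The kinetochore genes NDC80, CENPE and CENPF were below 4 FPKM in both libraries and below 0.4 FPKM in the affected one. NDC80, which binds microtubules at the kinetochore, was listed at 3.97 FPKM in the normal cat and 0.363 FPKM in the affected cat. CENPE, a kinetochore motor that aligns chromosomes, was listed at 1.85 and 0.132 FPKM, the latter the lowest value of any member. CENPF, a large protein of the outer kinetochore, was listed at 2.16 and 0.317 FPKM. Their log2 ratios of −1.87, −1.33 and −1.26 correspond to plain ratios of 10.9, 14.0 and 6.82. The interval for CENPE was wide (7.07 to 30.9), as it was calculated from 9 fragments on an assumed 1 kilobase in the affected library. The number of fragments on the whole transcript was not computed.

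The usual histological and cytological markers of proliferation followed the same direction. MKI67, which encodes the Ki-67 antigen that coats mitotic chromosomes, was listed at 4.31 FPKM in the normal cat and 0.325 FPKM in the affected cat, a ratio of 13.3 (8.58 to 21.4). TOP2A, the topoisomerase that untangles replicated chromosomes, was listed at 16.8 and 1.42 FPKM, a ratio of 11.8 (9.57 to 14.7). PCNA, the sliding clamp of DNA polymerase, which also serves DNA repair, was the most abundant member in the normal library at 64.2 FPKM and was listed at 31.5 FPKM in the affected one. Its log2 ratio of −1.0 lay at the 2-fold threshold. MKI67 and PCNA, both used to count dividing cells, therefore differed from each other, with MKI67 at 0.0672 times the level of PCNA in the normal cat and 0.0103 times in the affected cat.

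Spindle genes were divided. KIF11, the motor that pushes spindle poles apart, had the largest plain ratio of all members, 15.7 (10.5 to 24.2). It was listed at 6.02 FPKM in the normal cat and 0.384 FPKM in the affected cat. With 1 kilobase assumed for each gene, its interval overlapped those of all other members that were at least 10-fold lower. NUSAP1, which bundles spindle microtubules, had one of the smallest ratios among mitosis genes, 1.82 (1.64 to 2.03), from 14.4 and 7.89 FPKM. ASPM, which focuses spindle poles, was at 2.21 and 0.649 FPKM, with a log2 ratio of −0.96 just short of the threshold and a plain ratio of 3.41. Of the 4 mitosis genes that were not 2-fold lower on the log2 scale, 3 belonged to the spindle (TPX2, NUSAP1 and ASPM) and the other was CDC20.

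Genes of cytokinesis, the cleavage of the cell, had log2 ratios between −1.87 and −1.54 for 5 of 5. Without the added 1 FPKM they were further apart, from −1.99 for KIF20A to −2.87 for ECT2. PRC1, which bundles microtubules of the central spindle, was listed at 11.3 and 2.37 FPKM in the normal and the affected cat. ANLN, or anillin, a scaffold of the contractile ring, was listed at 9.88 and 2.33 FPKM, and ECT2, which activates RhoA at the cleavage site, at 5.07 and 0.691 FPKM. The kinesin KIF23 of the centralspindlin complex was at 5.26 and 0.860 FPKM, and the kinesin KIF20A, which brings the passenger complex to the midzone, at 7.08 and 1.78 FPKM. RACGAP1, the partner of KIF23 in centralspindlin, did not follow it, at 6.81 FPKM in the normal cat and 7.66 FPKM in the affected cat (log2 ratio 0.15).

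**Figure D3:**
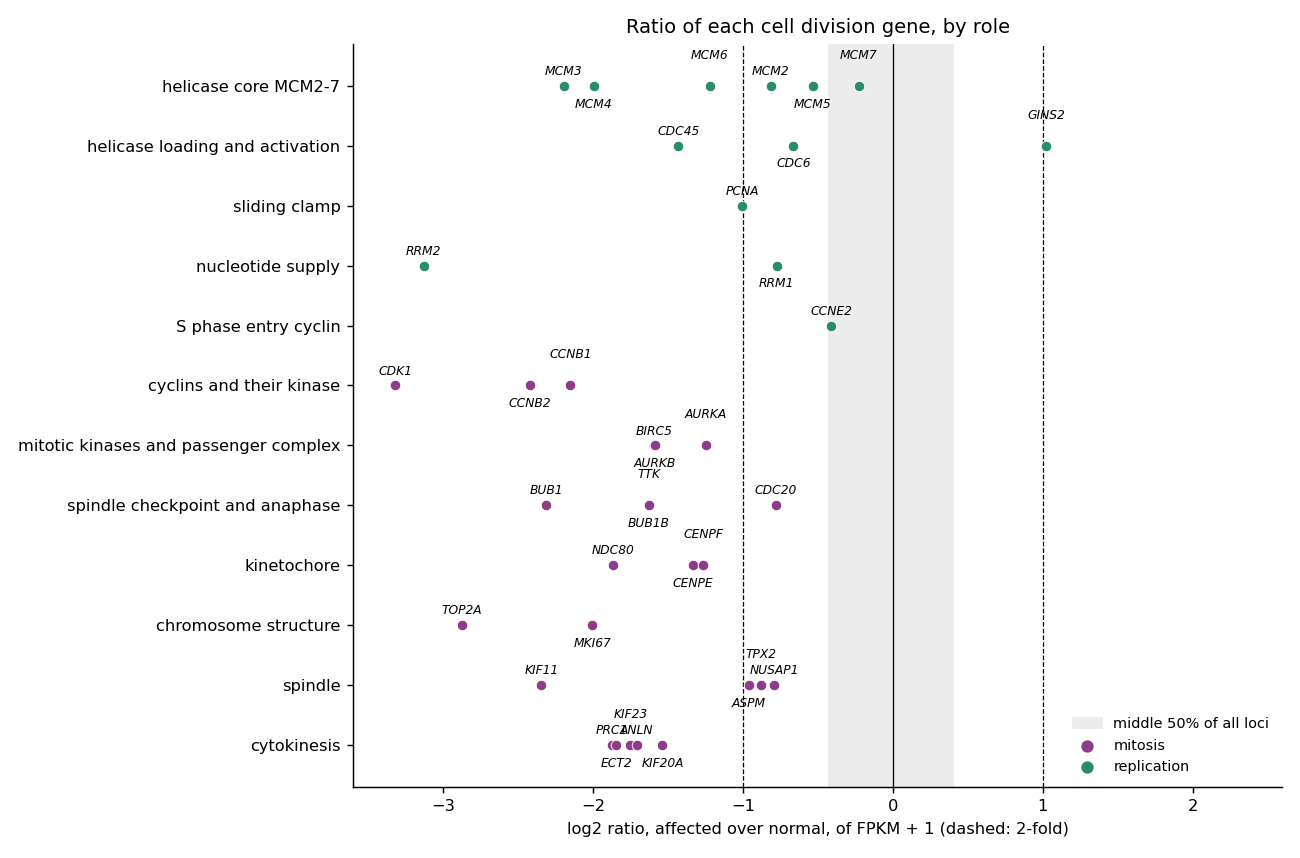
Log2 ratio of each cell division gene, affected over normal, after 1 FPKM was added, with 1 line per role, mitosis in purple and replication in green. The 5 cytokinesis genes lie between −1.87 and −1.54, while the helicase and spindle genes spread on both sides of the dashed 2-fold line.

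Replication genes were more varied, and the subunits of the replicative helicase differed among themselves. MCM2 to MCM7 form a ring with 1 copy of each subunit that unwinds DNA. In the normal library MCM2 to MCM6 lay close together, with MCM2 at 17.3, MCM3 at 13.6, MCM4 at 13.0, MCM5 at 15.7 and MCM6 at 16.1 FPKM, and the highest was 1.33 times the lowest. In the affected library the same genes were listed at 9.41, 2.18, 2.51, 10.5 and 6.36 FPKM, and the highest was 4.83 times the lowest. MCM3 and MCM4 thus stood apart from MCM2 and MCM5 in the affected library alone. MCM7 was the most abundant subunit in both, at 45.2 and 38.5 FPKM, and its plain ratio of 1.17 (1.11 to 1.24) was nearest to equality of all members. The MCM3 row shares its span of 154054 bases with PAQR8, which was listed at 2.50 and 2.44 FPKM. The MCM7 row shares its span of 7254 bases with 3 unnamed Ensembl loci listed at 0 in both libraries.

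Genes that load and activate the helicase differed in direction. CDC6, which loads the helicase at origins, was the scarcest member in the normal library at 1.27 FPKM, and was listed at 0.434 FPKM in the affected one. CDC45, which joins the helicase when it fires, was listed at 2.90 and 0.448 FPKM, a ratio of 6.48 (4.44 to 9.92). GINS2, a subunit of the GINS complex that joins together with CDC45, was the only member higher in the affected library, at 6.29 FPKM in the normal cat and 13.8 FPKM in the affected cat (log2 ratio 1.02). The other GINS genes did not share this, with log2 ratios of −1.10 for GINS1, −0.14 for GINS3 and −1.27 for GINS4. The GINS2 row carries a span of 398285 bases on chromosome E2 of felCat5, from 60131893 to 60530177, which it shares with GSE1 and 8 unnamed loci, and the table does not show which exons entered its value.

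Nucleotide supply gave the sharpest contrast inside a single enzyme. Ribonucleotide reductase makes the deoxynucleotides for DNA from RRM1, a subunit made through much of the cycle, and RRM2, a subunit restricted to S phase. RRM1 was listed at 26.1 FPKM in the normal cat and 14.9 FPKM in the affected cat, a ratio of 1.76 (1.63 to 1.90). RRM2 was listed at 20.9 and 1.5 FPKM, a ratio of 13.9 (11.4 to 17.2), and its log2 ratio of −3.13 was the lowest among replication genes. RRM2 was thus 0.799 times as abundant as RRM1 in the normal cat and 0.101 times in the affected cat. CCNE2, the cyclin that starts S phase with CDK2, was low in both, at 1.41 and 0.816 FPKM, and was not 2-fold lower on either scale.

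**Figure D4:**
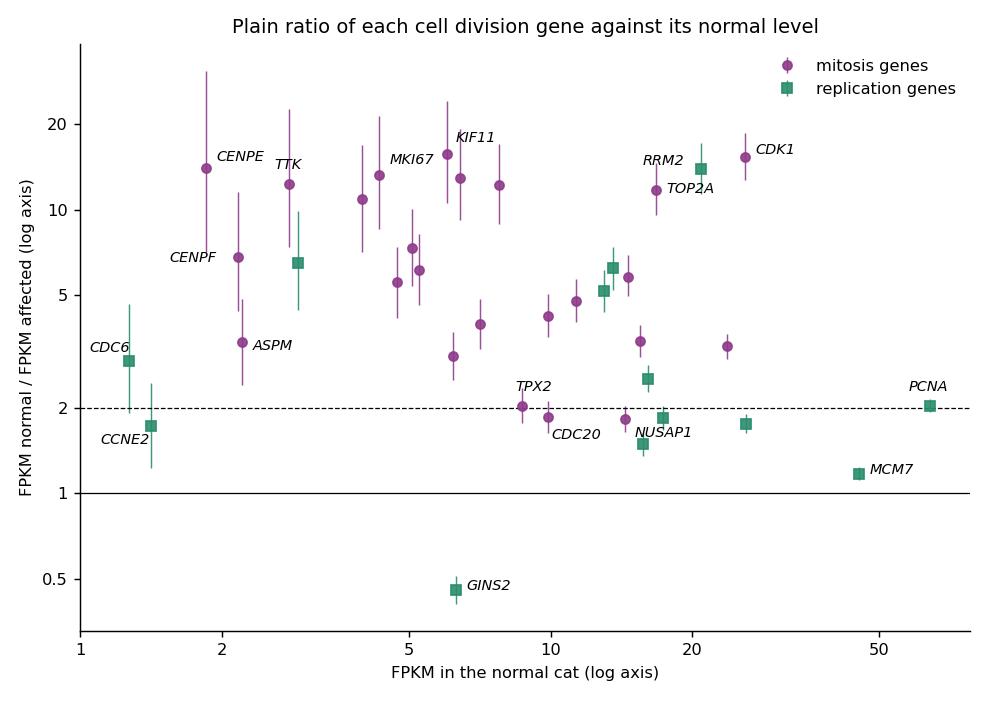
Plain ratio of the normal to the affected FPKM against the normal FPKM, both on log axes, for the 24 mitosis (circles) and 13 replication genes (squares), with exact 95% counting intervals for 1 kilobase of transcript. Ratios above 10 occur from CENPE at 1.85 FPKM to CDK1 at 25.9 FPKM, while MCM7 lies near equality and GINS2 below it.

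Members were spread over 17 chromosomes, and 11 of the 37 carried a span shared with other loci. Named neighbours with at least 1 FPKM stood on the spans of 10 members, and 8 of the 10 had a lower log2 ratio than each such neighbour. Of 19 neighbouring loci, 1 was at least 2-fold lower, 3 were at least 2-fold higher and 15 were neither, with a median log2 ratio of −0.024. Many of these loci lay on the span of AURKB, among them ARHGEF15, PER1 and VAMP2, so these counts and the median lean on that span. Outside it, every such neighbour had a negative log2 ratio except KIAA0895 (0.55) and NCEH1 (1.12). ECT2 (−1.84) shared its span with NCEH1, which was at 2.56 FPKM in the normal cat and 6.72 FPKM in the affected cat. AURKB (−1.59) shared its span with VAMP2, at 36.1 and 131.0 FPKM, with PER1, at 10.8 and 77.0 FPKM, with PFAS (log2 ratio −0.65) and with ARHGEF15, at 5.83 and 1.38 FPKM, whose log2 ratio of −1.52 was close to that of AURKB. AURKA (−1.25) shared its span with CSTF1, at 12.3 and 10.9 FPKM. CDC20 and NUSAP1 lay within 0.03 of their nearest neighbour on the log2 scale, while CCNE2 and GINS2 were above a neighbour. Over the 26 members that had a span to themselves, 26 were lower in the affected library and 20 were at least 2-fold lower. Of the 16676 loci that reached 1 FPKM in a library, 8392 were lower and 8.75% at least 2-fold lower. CDC6 and TOP2A, the closest pair of members, lie 63.2 kilobases apart on chromosome E1.

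Other genes of the same pathway were read against the same background, 8.75% of loci at least 2-fold lower and 8.14% at least 2-fold higher, and all 2-fold counts of lists from here on are made after 1 FPKM was added. Of 63 further mitosis genes, 49 were listed with at least 1 FPKM, and 33 of these (67.3%) were at least 2-fold lower and 0 were 2-fold higher, with a median log2 ratio of −1.20. UBE2C, which marks cyclins for destruction, was listed at 26.8 and 2.87 FPKM, and DLGAP5, a spindle protein, at 7.85 and 0.455 FPKM, the lowest ratios of the list. MAD1L1 and CENPH, of the checkpoint and the kinetochore, had the highest, 0.30 and 0.20, and the kinetochore gene CENPC, looked up after its value had been seen, was at 6.28 and 6.78 FPKM. Of 42 further replication genes, 36 were listed with at least 1 FPKM, 8 (22.2%) were at least 2-fold lower and 0 higher, and the median was −0.47. The difference between these lists has no replicate check either. TK1, a thymidine kinase induced in S phase, was listed at 22.1 and 3.72 FPKM, and GMNN, or geminin, which blocks a second round of licensing, at 12.7 and 3.64 FPKM. RFC2 and POLD2, a clamp loader and a polymerase subunit, had the highest ratios, 0.56 and 0.54.

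Partners of members in known complexes were looked up after their values had been seen. In the NDC80 complex, NUF2, SPC24 and SPC25 had log2 ratios of −1.21, −0.97 and −1.68, beside −1.87 for NDC80. In the spindle checkpoint, BUB3, the partner of BUB1 and BUB1B, was nearly level at 22.5 and 22.9 FPKM (log2 ratio 0.02), and MAD2L1 was at 19.3 and 11.4 FPKM (−0.71). In the passenger complex, INCENP and CDCA8 had −1.25 and −2.10. The regulators MYBL2 and FOXM1 were listed at 5.66 and 4.19 FPKM in the normal cat and at 0.688 and 0.417 FPKM in the affected cat.

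Genes of the G1 phase, in which cells decide whether to divide, had a median log2 ratio of −0.12, beside −0.0047 over all loci. Of 24 genes, 23 were listed and 21 had at least 1 FPKM, of which 3 (14.3%) were at least 2-fold lower, where 8.75% of loci were, and 0 were higher. E2F1, an activating E2F factor, was listed at 8.19 and 1.81 FPKM, and CDK4, the kinase that pairs with D cyclins, at 64.3 and 27.5 FPKM. RBL2 and LIN54, which belong to the complex that represses cell cycle genes in resting cells, had the highest ratios, 0.56 and 0.37.

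Inhibitors of the cell cycle were mixed. Of 16 genes, 13 had at least 1 FPKM, 6 were higher in the affected cat by at least 2-fold, where 8.14% of all loci were, 0 were 2-fold lower and 7 were neither. The median log2 ratio was 0.84, and 4 of the 13 had a lower FPKM in the affected cat. BTG2, an antiproliferative gene, was listed at 10.5 FPKM in the normal cat and 115.9 FPKM in the affected cat, and GADD45B, a stress sensor, at 10.3 and 89.4 FPKM. Both are also known as genes induced within minutes to hours by stress. The inhibitors of cyclin-dependent kinases were not among the 6, with CDKN1A at 18.5 and 21.4 FPKM and CDKN1B at 33.5 and 41.9 FPKM. CDKN2B, CDKN2C and CDKN2D, further inhibitors of this kind, had log2 ratios of −0.78, −0.22 and −0.19. CDKN2B and CCNG2 (−0.62) had the lowest ratios of the list, and the plain ratio of CDKN2B, at 1.95 and 0.716 FPKM, was 2.72.

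**Figure D5:**
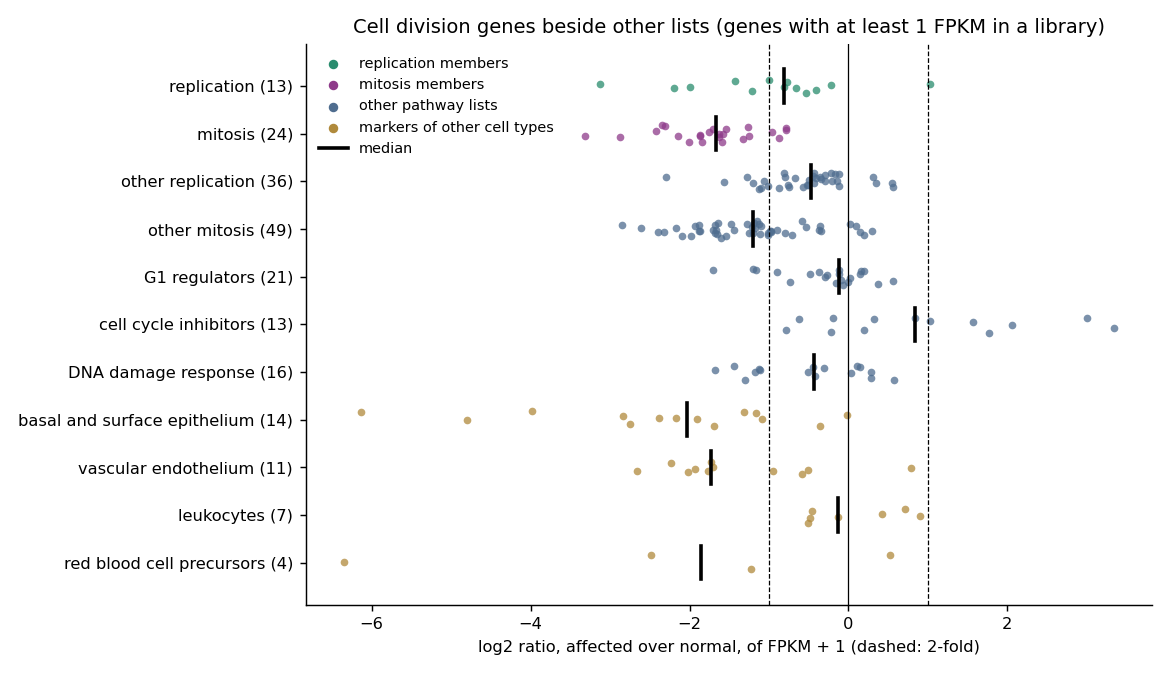
Log2 ratio, affected over normal, of genes that reached 1 FPKM in a library (number in brackets), with black bars for list medians and dashed lines for 2-fold differences. Both mitosis lists lie mostly below −1, G1 regulators lie around 0, inhibitors extend to 3.34, and markers of surface epithelium and endothelium also lie mostly to the left.

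Most markers of surface epithelium and of endothelium were lower in the affected library too. Of 14 genes of basal and surface epithelium with at least 1 FPKM, 12 were at least 2-fold lower, where 8.75% of all loci were, and the list held 703.2 FPKM in the normal cat and 104.5 FPKM in the affected cat. KRT12, a keratin of corneal epithelium, was listed at 299.1 and 3.27 FPKM, KRT5, a keratin of basal cells, at 106.2 and 5.76 FPKM, and PERP, a desmosome protein, at 63.3 and 62.4 FPKM. Of 11 endothelial genes, 7 were at least 2-fold lower and 0 at least 2-fold higher, and the list held 194.4 and 73.8 FPKM, with CLDN5 at 32.9 and 7.35, KDR at 22.3 and 15.4 and EMCN at 28.7 and 5.35 FPKM. FLT1, a VEGF receptor, had the only higher value of the endothelial list in the affected cat, at 9.35 and 16.9 FPKM. No marker of either list was listed at 0 in a library. Among genes of red blood cells and their precursors, 3 of 4 were at least 2-fold lower, HBA was listed at 213.7 and 1.64 FPKM, AHSP at 3.06 and 0.731 FPKM, and HBM at 4.61 FPKM and at 0. EPB42, the other gene, was at 0.573 and 1.27 FPKM (log2 ratio 0.53) and reached 1 FPKM in the affected library alone.
Leukocyte markers differed little, with 0 of 7 at least 2-fold apart and sums of 33.9 and 33.0 FPKM, CSF1R at 12.9 and 11.7, AIF1 at 10.9 and 7.39 and CD14 at 3.12 and 4.50 FPKM. Lens genes were at least 2-fold higher for 5 of 9 and lower for 2 of 9, and CRYAA, at 0 in the affected library, is among the lower. Photoreceptor genes, which mark cells that do not divide, were higher for 7 of 8. Of all loci, 8.14% were at least 2-fold higher and 8.75% lower. The part of these cell types in the lower level of cell division genes was not tested.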

How the data were processed

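Per the labels and the methods of the study, RNA from 1 normal and 1 affected cat was prepared with a TruSeq v2 kit, aligned to felCat5 with TopHat2 2.0.9 and Ensembl gene predictions, and quantified with Cufflinks 2.1.1. The authors deposited 1 FPKM value per locus and library. Scaling between libraries and filters are not given in the sources used here. A count model cannot take FPKM, and 1 library per condition allows no test and no p-value.

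Names were matched exactly, and each member stood on 1 row. Log2 ratios used a pseudocount of 1 FPKM, and loci needed at least 1 FPKM in at least 1 library. The members, lists and thresholds were chosen with earlier results of these data known. All members are named, with the 2 highest and 2 lowest of each pathway list and up to 3 abundant genes of each marker list, and other genes where stated. A value that this rule names is not reported here. Of the lens, photoreceptor and angle lists, counts are given, with values for CRYAA, CRYAB, CRYBB2, MYOC, AQP4 and CHI3L1. The genes named from the angle list were not picked by abundance, and no 2-fold counts are given for it. A list on the DNA damage response is described among the other observations.

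The value of 1 fragment was found from steps at unnamed loci with a span of their own, where 97.5% (2171 loci, normal) and 96.6% (1941 loci, affected) of values lay within 0.03 of whole fragments. Counting intervals assume 1 kilobase of effective length, in place of the coding length that was planned, and cover counting error only. Starts were converted to count from 1. Calls and steps were tested on simulated data. Alternatives were other pseudocounts, scalings, minimums, a 4-fold threshold and other groupings. Promoter sequences were not analysed here. Python 3.11.15, numpy 2.4.6, pandas 2.3.3, scipy 1.17.1 and matplotlib 3.10.9 were used.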

Additional observations from a re-analysis of the deposited data

How the results depend on the processing

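Of 11 alternatives, 3 could change no value of these genes (no minimum, summing rows of 1 name, and counting the unlisted CCNA2 with replication). The other 8 gave 228 single-gene log2 ratios, for 20 to 37 genes each and none at the 4-fold threshold, of which 0 changed sign and 86 moved by at least 0.1. The group medians, recomputed under 7 of the 8, also kept their sign, and the pseudocount moved them most. With 0.1 FPKM the medians were −2.46 for mitosis and −1.02 for replication genes, a difference of −1.44, and with none −2.57 and −1.03, a difference of −1.55, because less is added to scarce genes. With each library scaled to sum to 1000000 the mitosis median was −1.93 and the difference −1.04. Genes at least 2-fold lower numbered 12 with a mean of at least 5 FPKM (7 for mitosis, difference of medians −0.74), since 20 members remained. With the 4-fold threshold they numbered 9, 7 for mitosis and 2 for replication. Without members on shared spans, an alternative chosen after the data were examined, the medians were −1.87 and −1.0. No paired analysis was possible because there is 1 cat per condition. Per kilobase, the fewest fragments in the affected library, 9 to 26, stood behind CENPE, TTK, MKI67, CENPF, NDC80 and KIF11; fragments per gene were not computed.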

Other observations

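Of 16 genes of the DNA damage response, 16 were listed with at least 1 FPKM, and after 1 FPKM was added 6 were at least 2-fold lower in the affected library, where 8.75% of all loci were, and 0 were at least 2-fold higher. Of the 16, 10 had a lower FPKM and 6 a higher one, and the median log2 ratio was −0.44. EXO1, a nuclease of DNA repair, was listed at 2.51 FPKM in the normal cat and 0.288 FPKM in the affected cat. ATR and BRCA2 had the highest ratios of the list, 0.28 and 0.57, and BRCA2 was at 0.672 and 1.49 FPKM, a plain ratio of affected to normal of 2.21.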
